A study of Mus musculus with 18 samples.

Results

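Naive and germinal center B cells that lacked Dnmt3a and Dnmt3b, the enzymes of de novo DNA methylation, were compared, to ask how far the germinal center program was built in their absence. The 6 libraries were 3 of lymph node naive B cells (nB) and 3 of antigen-specific germinal center B cells (GCB) from Dnmt3-deficient mice, out of 18 RNA-seq libraries in the series, and they were taken by cell type and genotype alone. Dnmt3-deficient mice were Dnmt3afl/fl Dnmt3bfl/fl and carried 1 allele of a Cre that is expressed in B lineage cells from the pro-B cell stage on and removes floxed exons for the catalytic domains. The 6 Dnmt3-sufficient libraries set beside them came from mice with the same floxed alleles and no Cre. All mice were of the mixed B6;129S4 background and were 8 to 12 weeks old at the start of experiments. Their age when cells were taken is not given per library. nB were B220+ GL7− Fas− cells of single unimmunized mice. GCB were B220+ PE+ GL7+ Fas+ cells taken 30 days after immunization with phycoerythrin (PE) in complete Freund's adjuvant, and each GCB library pooled 2 mice. Cell type, immunization, pooling and any difference in age at collection therefore cannot be told apart in any GCB against nB difference. In each of these groups 2 libraries were female and 1 was male.

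A naive follicular B cell rests outside the cell cycle and recirculates through lymph nodes, guided by adhesion molecules and by receptors for chemokines and sphingosine phosphate. In a germinal center the same cell divides rapidly, mutates its antibody genes, and moves between a dark zone of division and a light zone of selection. Dnmt3a and Dnmt3b methylate new CpG sites, while Dnmt1 copies existing methylation after each round of DNA replication.

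Levels are FPKM, reads on a gene scaled by its exon length and by the depth of the library. A change is the difference of mean log2(FPKM + 1), GCB minus nB, and the scale understates changes of low genes. Genes are said to have risen or fallen where the change was at least 1 in size and limma gave an adjusted p of at most 0.05 (Benjamini-Hochberg, all genes tested). Values of 3 libraries are given in the order of replicates 1, 2 and 3. The 6 Dnmt3-deficient libraries held 7016395 to 8824079 reads on genes, and no pair of replicates was as alike as repeat counting of 1 library would be. Of 10390 genes with FPKM above 1 in at least 2 of the 6 libraries, 1235 rose in GCB (11.9% of genes tested) and 1687 fell (16.2%). The median change of all genes tested was -0.15. Median of ratios scaling moved that median to -0.02 and the share of called genes that rose from 42.3% to 51%, so changes are read against this shift. All 3 libraries of 1 cell type lay beyond all 3 of the other for 2884 of the 2922 genes that passed, against 48.7% of all genes tested. The genes passed on these same values, so this is no separate support for the calls.

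The labels held for the markers that define the cells. Mki67, a protein of dividing cells, was at 0.36, 0.849 and 0.506 FPKM in nB and 99.3, 55.6 and 111 FPKM in GCB (change 5.78 ± 0.34 (SE), adjusted p = 1.80e-06). Fcer2a, the low-affinity IgE receptor CD23 of follicular B cells, was at 622, 681 and 719.8 FPKM in nB and 30.2, 66.4 and 33.8 FPKM in GCB (change -4.01 ± 0.26 (SE), adjusted p = 3.13e-06). Ccr7, the chemokine receptor that draws cells toward the T cell zone, was at 172, 164 and 189 FPKM in nB and 6.92, 2.0 and 0.803 FPKM in GCB (change -5.65 ± 0.45 (SE), adjusted p = 1.02e-05). For none of these genes did the groups overlap, and the plot of expression in each library shows the same separation in the Dnmt3-sufficient libraries.

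**Figure D1:**
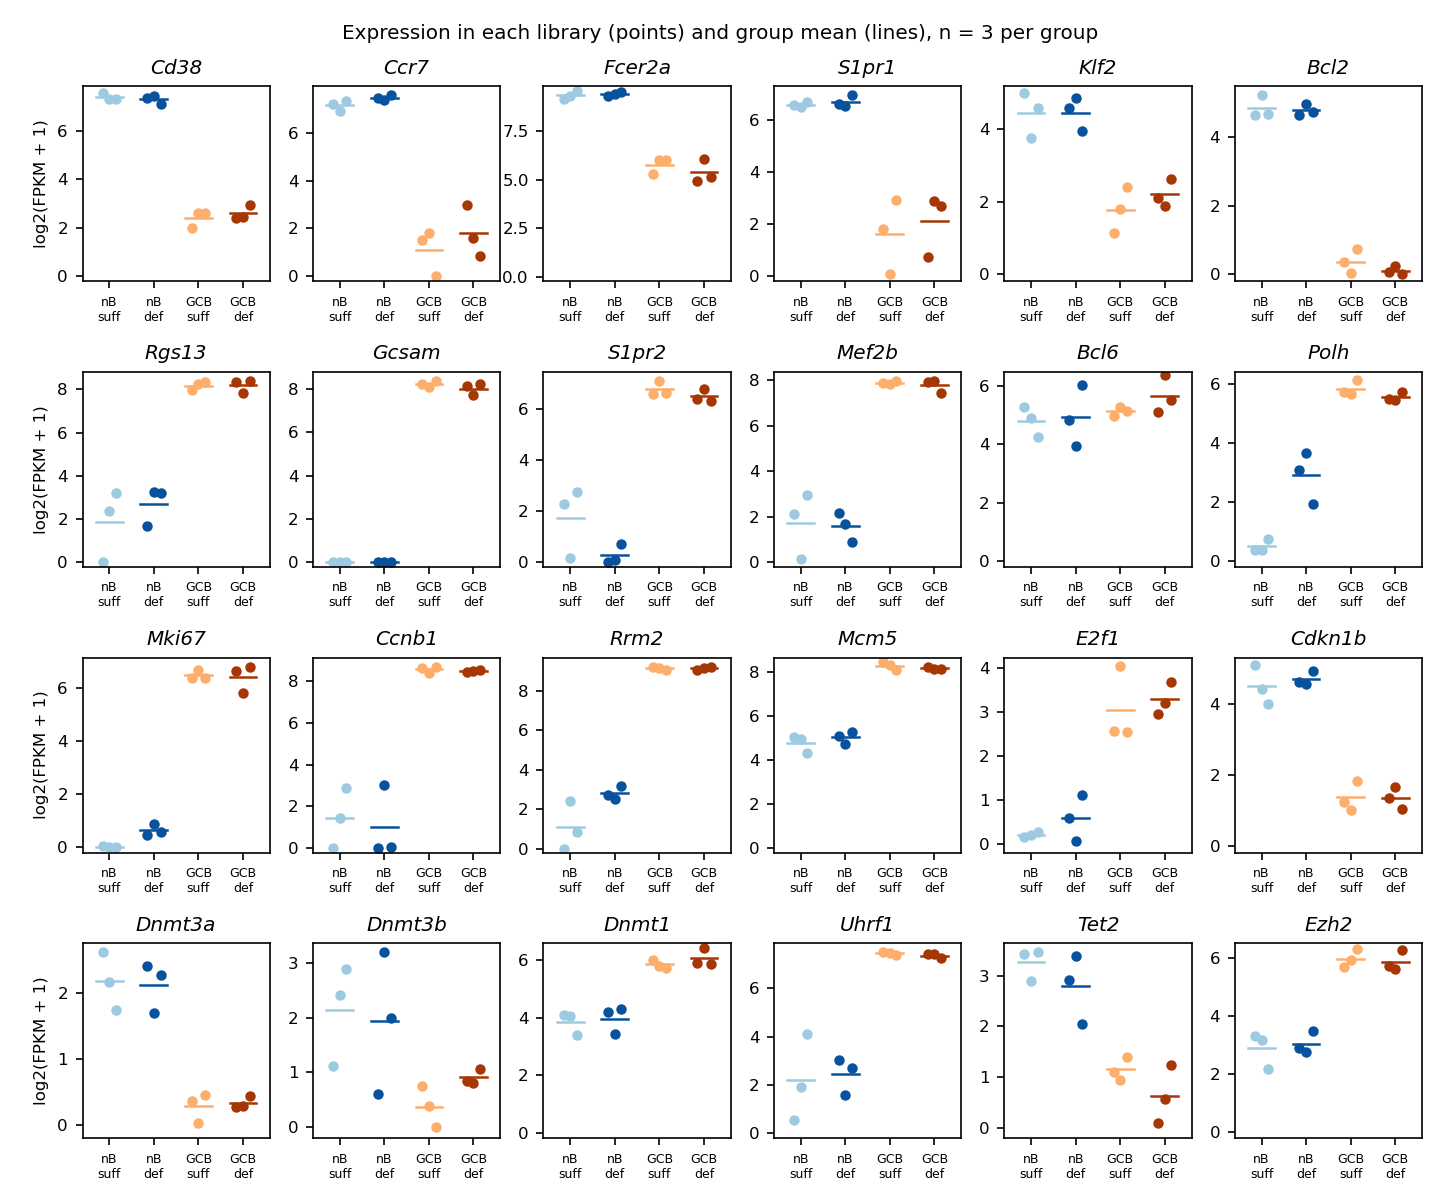
Level of 24 genes in each nB and GCB library of both genotypes, as log2(FPKM + 1) on the vertical axis, with points for the 3 libraries of a group and a line at the group mean (suff, Dnmt3-sufficient; def, Dnmt3-deficient). Gcsam was at 0 in every nB library and high in every GCB library, Bcl6 overlapped between cell types, and Polh was higher in Dnmt3-deficient than in Dnmt3-sufficient nB.

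The nB libraries also held RNA of marker genes of other cell types, and 1 of the libraries stood apart for some genes. Summed over 11 markers of plasmacytoid dendritic cells, which carry B220, the level was 347, 509 and 390.3 FPKM in Dnmt3-deficient nB and 41.4, 68.1 and 59 FPKM in GCB, where 5 of the markers were at 0 in every library. Over 14 markers of natural killer and cytotoxic cells it was 326, 418 and 394 FPKM in nB and 2.42, 8.59 and 6.38 FPKM in GCB, with 8 of the markers at 0 in all GCB libraries. Both lists were drawn up after the largest falls were seen and share Tyrobp.

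T cell markers were also higher in nB. The 15 T cell markers summed to 41.4, 108 and 73.9 FPKM in nB and 8.95, 9.75 and 6.64 FPKM in GCB, with Cd8b1 and Trat1 at 0 in all GCB libraries. The 17 macrophage and dendritic cell markers overlapped, at 279 to 343 FPKM in nB and 221 to 375 FPKM in GCB, with C1qc, Mertk, Cd14 and Marco at 0 in all 6 libraries. The 11 follicular dendritic and stromal markers summed to 129 to 145 FPKM in nB and 6.63 to 24.6 FPKM in GCB, with Pdpn, Col1a1, Col1a2, Col3a1, Dcn and Pdgfrb at 0 in all 6.

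Of the 11 neutrophil markers, 10 were at 0 in every nB library and all of them in every GCB library. The 6 erythroid markers summed to 26.5, 138 and 289.8 FPKM in Dnmt3-deficient nB, 48.2, 14.2 and 23 FPKM in GCB, and 0.705, 1.42 and 0.75 FPKM in Dnmt3-sufficient nB, with Slc4a1 at 0 in all of these libraries. By gene, 0 markers of these lists rose by limma or by voom. Those that fell were 8 of 11 plasmacytoid, 12 of 13 natural killer and cytotoxic, 5 of 9 T cell, 1 of 7 macrophage and dendritic, 2 of 4 erythroid and both tested stromal markers, Pecam1 and Mfge8, while no neutrophil marker was high enough to be tested. Of all genes tested 16.2% fell, so the macrophage and dendritic falls are near the share over all genes. The plot of marker sums sets the T, plasmacytoid, natural killer and erythroid lists side by side. Whether such cells were present, and how much they add to the falls below, was not tested. In these bulk samples fewer cells of a type and less RNA per cell cannot be told apart.

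**Figure D2:**
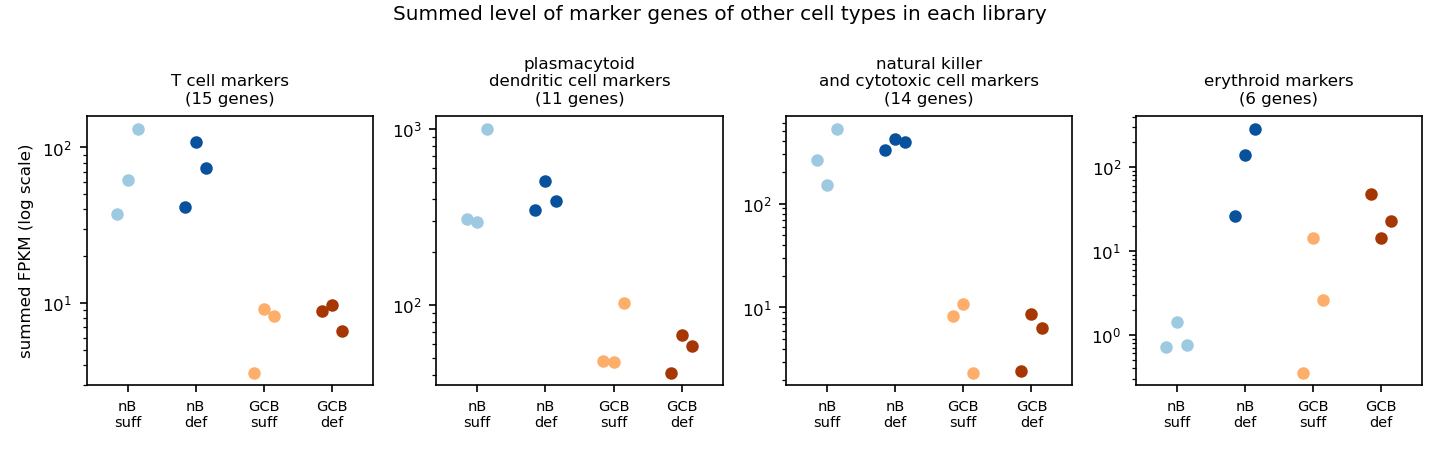
Summed FPKM (log scale) of marker genes of 4 other cell types in each nB and GCB library of both genotypes (points, 3 libraries per group). The T cell, plasmacytoid dendritic and natural killer sums were higher in every nB library than in any GCB library of the same genotype, and the erythroid sum was higher in Dnmt3-deficient than in Dnmt3-sufficient nB.

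The library that stood apart, for Jchain and Ccnb1, was nB replicate 2. Its Jchain, the joining chain of secreted IgM and IgA, was at 113 FPKM, against 0.119 and 0 FPKM in the other nB libraries. Its Ccnb1 was at 7.26 FPKM against 0 and 0.0565 FPKM. Other division genes differed in this: Ube2c was highest in nB replicate 1 and Ccnb2 in nB replicate 3. Without nB replicate 2 the change of Jchain was 9.21 rather than 6.96, and 1253 genes rose and 1731 fell. Of the markers of other cell types, 3 macrophage and dendritic markers then fell rather than 1. Fewer fell of the T cell markers (4 rather than 5) and of the natural killer and cytotoxic markers (11 rather than 12). Of the stromal and erythroid markers 1 each fell rather than 2, and 8 plasmacytoid markers fell as before.

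The largest rises included genes of germinal center signaling and of mitosis. Gcsam, an adaptor of germinal center B cells, was at 0 FPKM in all 3 nB libraries and at 273, 207 and 296 FPKM in GCB (change 8.0 ± 0.26 (SE), adjusted p = 8.58e-08). With nB set to a floor of 3 reads per library, which covers counting error only, GCB were 2183-fold higher. Also among the 10 largest rises, with changes from 6.51 to 7.42, were Ccnb1, Ccnb2, Cdk1, Ube2c, Shcbp1, 2810417H13Rik (Pclaf, a partner of PCNA), Jchain and a gene given only by its Entrez ID, 239151.

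The largest falls mixed naive B cell genes with marker genes of the other cell types described above. Cd55, a brake on complement, was at 236, 184 and 209 FPKM in nB and 1.42, 3.05 and 3.52 FPKM in GCB (change -5.89 ± 0.28 (SE), adjusted p = 6.34e-07). Ccr7, Sdc4, Il27ra and Cnn3 had changes from -5.65 to -5.6. Also among the 10 largest falls were Ccl5, Tyrobp, Siglech and Nkg7, which had changes from -6.07 to -5.74 and are better known from natural killer, myeloid and plasmacytoid dendritic cells than from B cells. Siglech was at 36.5, 115 and 57 FPKM in nB and 0, 0.0516 and 0 FPKM in GCB.

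All 14 naive B cell markers fell, against 16.2% of all genes tested, with a list median of -4.21 against -0.15 for all genes tested. By voom 13 of them fell, and 13 or 14 fell when any 1 library was left out. S1pr1, the receptor that lets lymphocytes leave lymph nodes, was at 95.5, 90.4 and 122 FPKM in nB and 0.634, 6.41 and 5.42 FPKM in GCB (change -4.59 ± 0.5 (SE), adjusted p = 7.95e-05). Klf2, a transcription factor that maintains S1pr1 in resting lymphocytes, was at 22.9, 28 and 14.5 FPKM in nB and 3.3, 2.66 and 5.12 FPKM in GCB (change -2.27 ± 0.35 (SE), adjusted p = 7.35e-04). Cd38, an ectoenzyme that mouse germinal center cells lose, was at 163, 173 and 138 FPKM in nB and 4.37, 4.5 and 6.74 FPKM in GCB (change -4.7 ± 0.24 (SE), adjusted p = 8.45e-07). In Dnmt3-sufficient cells the changes of these 3 genes were -4.97, -2.68 and -5.01.

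Most germinal center regulators rose, with exceptions among the best known. Of 22 tested, 13 rose and 3 fell, where 11.9% of all genes tested rose and 16.2% fell. The falls are thus near the share over all genes, and the list median was 3.24. S1pr2, the receptor that confines cells to the germinal center, was at 0, 0.0506 and 0.604 FPKM in nB and 84.5, 112 and 80 FPKM in GCB (change 6.27 ± 0.32 (SE), adjusted p = 8.60e-07). Mef2b, a transcription factor of germinal center B cells, was at 3.48, 2.24 and 0.84 FPKM in nB and 243, 252 and 176 FPKM in GCB (change 6.21 ± 0.33 (SE), adjusted p = 1.13e-06). The Polycomb methyltransferase gene Ezh2 was at 6.43, 5.76 and 10.3 FPKM in nB and 51.2, 48 and 76.5 FPKM in GCB (change 2.81 ± 0.29 (SE), adjusted p = 6.29e-05). Fas rose too, but GCB were sorted as Fas+, so its rise restates the gate.

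Bcl6, the repressor on which germinal centers depend, did not pass. It was at 27.4, 14.5 and 64.1 FPKM in nB and 33.1, 81.1 and 44.4 FPKM in GCB, and the groups overlapped (change 0.72, 95% interval -0.36 to 1.79, adjusted p = 0.28). Dnmt3-sufficient libraries gave a change of 0.33 for it. The members that fell were Cd83, Lmo2 and Hhex. Hhex, a homeobox gene active in both B cell progenitors and mature B cells, was at 102, 96.3 and 135 FPKM in nB and 0.542, 4.12 and 6.97 FPKM in GCB (change -4.8 ± 0.51 (SE), adjusted p = 6.87e-05). Cd83, a light zone surface protein, was at 426, 619.7 and 637 FPKM in nB and 192, 327 and 244 FPKM in GCB (change -1.15 ± 0.22 (SE), adjusted p = 0.0026), and it no longer passed under median of ratios scaling or without GCB replicate 1.

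Most dark zone genes rose, against 11.9% of all genes tested. Of 15 dark zone genes 9 rose and 1 fell (median 4.4), with the mitotic cyclin gene Ccnb1 and the mitotic kinesin gene Kif20a among the largest rises. Others that rose were Cdkn3, Plk1, Stmn1, Cdc20 and Hmmr, all genes of dividing cells, and the polymerase gene Polh. Cxcr4, the chemokine receptor of the dark zone, was at 13.3, 9.04 and 13.7 FPKM in nB and 24.3, 22.6 and 27 FPKM in GCB, with a change of 0.996, just under the minimum (adjusted p = 0.014), and under median of ratios scaling it passed at 1.14. Foxo1, a transcription factor that maintains the dark zone, had a change of -0.33 (95% interval -0.86 to 0.2) and did not pass.

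Of 20 light zone genes 1 rose and 6 fell (median -0.38), where 11.9% of all genes tested rose and 16.2% fell, so the single rise is near the share over all genes. The gene that rose was Cd86, a costimulatory ligand, from 51, 35.9 and 44.5 FPKM in nB to 139, 178 and 101 FPKM in GCB (change 1.63 ± 0.24 (SE), adjusted p = 5.24e-04). The largest falls were those of Ccr6, a chemokine receptor that is also on the naive list, and of the activation-induced transcription factor genes Egr3 and Nr4a1, with changes of -4.4, -3.36 and -2.91. Counts of both zones differed by at most 1 gene when any 1 library was left out.

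Repair genes used in somatic hypermutation and class switching rose in part. Of 35 tested, 16 rose and 0 fell by limma, where 11.9% of all genes tested rose and 16.2% fell. The median was 1.09, and voom on recovered reads also gave 0 falls. Neil1, a base excision glycosylase, was at 22.1, 24.5 and 13.2 FPKM in nB and 259.7, 289.6 and 229 FPKM in GCB (change 3.67 ± 0.24 (SE), adjusted p = 3.18e-06). The mismatch repair genes Msh6 and Exo1 rose by 1.87 and 3.14. Ung, the glycosylase that removes uracil from DNA, was at 0.822, 1.5 and 5.04 FPKM in nB and 2.47, 11 and 5.31 FPKM in GCB, and its change of 1.09 (95% interval -0.17 to 2.34) did not pass.

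Nearly all mitosis genes and most DNA replication genes rose, where 11.9% of all genes tested rose and 16.2% fell. Of 55 mitosis genes 53 rose and 0 fell (median 4.83, against -0.15 for all genes tested), also without nB replicate 2 and by voom, and Zw10 and Pttg1 were the exceptions, with changes of 0.06 and -0.09. Of 54 DNA replication genes 43 rose and 0 fell (median 2.43), with 41 to 44 rises when any 1 library was left out. Ccnb1, the mitotic cyclin B1, was at 0, 7.26 and 0.0565 FPKM in nB and 339, 354 and 360.1 FPKM in GCB (change 7.42 ± 0.67 (SE), adjusted p = 2.28e-05). Ccnb2, cyclin B2, was at 0, 1.39 and 2.12 FPKM in nB and 258, 277 and 285 FPKM in GCB (change 7.13 ± 0.38 (SE), adjusted p = 1.13e-06). Ube2c, which tags mitotic cyclins for destruction, was at 2.42, 0.306 and 0.281 FPKM in nB and 219, 218 and 219 FPKM in GCB (change 6.94 ± 0.37 (SE), adjusted p = 1.13e-06).

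The largest rises among DNA replication genes were those of Rrm2, Top2a and Cdc6. Rrm2, a subunit of ribonucleotide reductase, was at 5.63, 4.71 and 7.98 FPKM in nB and 534, 571 and 586 FPKM in GCB (change 6.34 ± 0.21 (SE), adjusted p = 8.58e-08). The topoisomerase gene Top2a was at 4.61, 7.12 and 1.97 FPKM in nB and 266, 252 and 249 FPKM in GCB (change 5.64 ± 0.33 (SE), adjusted p = 1.84e-06). Cdc6, which loads the replicative helicase, was at 0, 2.08 and 0 FPKM in nB and 53.8, 61.5 and 70.4 FPKM in GCB (change 5.43 ± 0.44 (SE), adjusted p = 1.25e-05), and Mcm5, part of that helicase, was at 33.8, 25.9 and 38.4 FPKM in nB and 302, 283 and 287 FPKM in GCB (change 3.13 ± 0.19 (SE), adjusted p = 1.97e-06). In each of these genes every GCB library lay above every nB library.

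Short motifs were counted in the promoters of these 2 lists, and the 3 genes with the largest rise in each are shown. The sequences are from RefSeq on build GRCm38.p6, sense strand, from 150 bases before the start site up to the start or to the first base of an annotated transcript. Capitals mark E2F sites (TTTCCCGC, TTTGGCGC, TTTCGCGC or TTTGCCGC), the CHR element of mitotic genes (TTTGAA or TTCGAA) and the CCAAT box (CCAAT), each on either strand.
Ccnb1 (chr13:100786552-100786636, minus strand): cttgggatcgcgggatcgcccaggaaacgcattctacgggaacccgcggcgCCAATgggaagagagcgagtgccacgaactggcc
Ccnb2 (chr9:70421555-70421704, minus strand): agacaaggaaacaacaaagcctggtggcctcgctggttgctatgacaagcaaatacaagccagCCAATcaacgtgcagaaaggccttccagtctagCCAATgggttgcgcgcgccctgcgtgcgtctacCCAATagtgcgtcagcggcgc
Ube2c (chr2:164769779-164769916, plus strand): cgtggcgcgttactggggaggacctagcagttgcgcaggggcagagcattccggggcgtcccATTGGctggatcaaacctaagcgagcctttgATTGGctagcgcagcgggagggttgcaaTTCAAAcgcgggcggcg
Rrm2 (chr12:24708104-24708253, plus strand): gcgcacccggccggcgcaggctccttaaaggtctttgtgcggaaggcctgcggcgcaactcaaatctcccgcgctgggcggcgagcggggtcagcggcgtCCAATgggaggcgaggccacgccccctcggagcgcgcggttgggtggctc
Top2a (chr11:99024190-99024339, minus strand): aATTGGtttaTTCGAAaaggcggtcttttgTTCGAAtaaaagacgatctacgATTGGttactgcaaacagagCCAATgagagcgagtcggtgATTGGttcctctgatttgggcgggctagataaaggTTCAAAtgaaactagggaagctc
Cdc6 (chr11:98908001-98908150, plus strand): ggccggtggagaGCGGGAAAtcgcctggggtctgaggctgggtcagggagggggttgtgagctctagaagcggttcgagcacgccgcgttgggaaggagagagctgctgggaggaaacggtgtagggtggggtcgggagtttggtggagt

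In these stretches Top2a held 4 CCAAT boxes and 3 CHR elements, Ccnb2 held 3 CCAAT boxes, Ube2c held 2 with 1 CHR element, Ccnb1 and Rrm2 held 1 CCAAT box each, and Cdc6 held 1 E2F site. Over the 300-base window of each promoter, from 250 before to 50 after the start, a CHR element was present in 37 of 46 mitosis genes with a promoter sequence, or 80.4%, against 22.2% of the DNA replication genes and 17% of the 8299 genes tested that had one. An E2F site was present in 16 of 45 DNA replication genes, or 35.6%, against 8.7% of the mitosis genes and 5.05% of all. CCAAT boxes were in 73.9%, 55.6% and 43.9%. These are counts of letters in a window and not of bound sites.

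The regulators of the cell cycle moved both ways. Of 38 tested, 17 rose and 4 fell (median 0.89), where 11.9% of all genes tested rose and 16.2% fell. The phosphatase Cdc25c, which activates Cdk1, was at 0 FPKM in nB and 47.7, 47.5 and 49.4 FPKM in GCB (change 5.62 ± 0.3 (SE), adjusted p = 1.13e-06). Ccne2 and E2f8 rose by 4.99 and 4.75, and the activators E2f1, Foxm1 and Mybl2 by 2.69, 2.75 and 3.26. The inhibitor Cdkn1b, p27, was at 23.9, 22.7 and 29.8 FPKM in nB and 1.56, 2.17 and 1.06 FPKM in GCB (change -3.36 ± 0.32 (SE), adjusted p = 3.20e-05), and Rb1, Ccnd2 and Ccnd3 had changes of -2.18, -1.59 and -1.38.

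Most quiescence factors fell. Of 19 tested, 11 fell and 1 rose (median -1.77), where 16.2% of all genes tested fell and 11.9% rose. The largest falls were those of Klf3, Cdkn1b and Ypel3, with changes of -3.64, -3.36 and -3.17. The gene that rose, Klf4, was low, at 1.23, 1.31 and 0 FPKM in nB and 5.44, 4.23 and 3.24 FPKM in GCB (change 1.6 ± 0.43 (SE), adjusted p = 0.016), and it no longer passed with a pseudocount of 0.1 or without GCB replicate 1 or 2. The plot of gene lists places all of these groups on 1 scale.

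**Figure D3:**
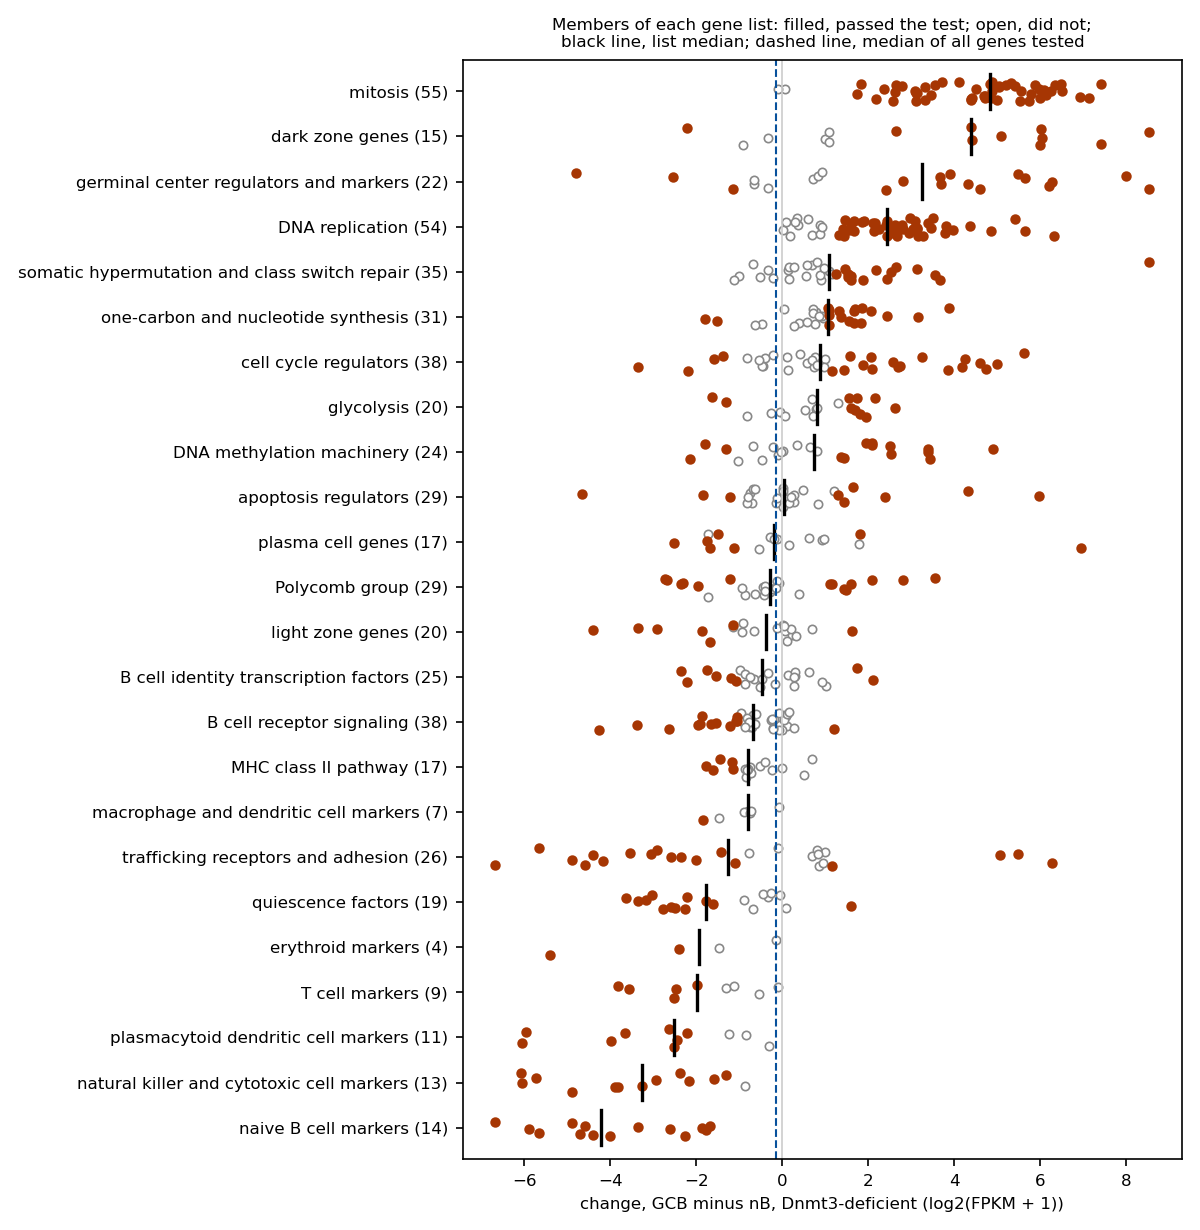
Change of every tested member of each gene list in Dnmt3-deficient cells, GCB minus nB on the log2(FPKM + 1) scale (horizontal axis), with lists in order of their median and the number of tested members in parentheses. Filled points passed the test, open points did not, black lines are list medians (4.83 for mitosis, -4.21 for naive B cell markers), and the dashed line is the median of all genes tested, -0.15.

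Genes that guide cell movement fell more often than they rose. Of 26 trafficking and adhesion genes 4 rose and 14 fell (median -1.26), where 11.9% of all genes tested rose and 16.2% fell. The rises are thus near the share over all genes. Beside S1pr2, the rises were led by Rgs13 and Rgs1, which dampen chemokine receptor signals: Rgs13 was at 2.21, 8.59 and 8.28 FPKM in nB and 325, 231 and 336 FPKM in GCB (change 5.48 ± 0.39 (SE), adjusted p = 4.94e-06). Ccr7 and Gpr183 were among the largest falls. Gpr183, a receptor for oxysterols that keeps B cells at the edge of the follicle, was at 169.9, 153 and 135 FPKM in nB and 4.04, 6.31 and 2.77 FPKM in GCB (change -4.88 ± 0.28 (SE), adjusted p = 1.54e-06). Cxcr5, the follicle homing receptor, fell from 328, 292 and 314 FPKM to 107, 106 and 134 FPKM (change -1.42 ± 0.16 (SE), adjusted p = 8.01e-05).

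B cell receptor signaling genes fell more often than they rose, as did all genes tested, of which 11.9% rose and 16.2% fell. Of the 38 signaling genes tested, 1 rose, 12 fell and 25 did not pass (median -0.69). Under median of ratios scaling 9 fell. The inhibitory receptors Pirb and Cd72 and the adaptor Bank1 fell most: Cd72 was at 698, 666 and 548 FPKM in nB and 45.5, 67.9 and 69.7 FPKM in GCB (change -3.38 ± 0.19 (SE), adjusted p = 1.66e-06). The kinase gene Akt1 was the one that rose, by 1.21. Of 17 MHC class II genes 0 rose and 5 fell by limma (median -0.79), beside the same shares of all genes. Voom also gave 0 rises and 5 falls. The protease Ctss and the peptide-loading modulators H2-Oa and H2-Ob had changes of -1.77, -1.6 and -1.46.

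B cell identity transcription factors passed about as often as other genes, of which 11.9% rose and 16.2% fell. Of 25 tested, 2 rose, 6 fell and 17 did not pass (median -0.47). Pax5, which commits cells to the B lineage, was at 64.9, 57.2 and 52.6 FPKM in nB and 18.5, 18.1 and 21.6 FPKM in GCB (change -1.54 ± 0.21 (SE), adjusted p = 3.27e-04). Runx3, Foxp1 and Irf4 had changes of -2.35, -2.21 and -1.76, while Id2 and Ikzf3 rose by 2.13 and 1.74. With any 1 library left out, 5 to 9 of these genes fell.

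The rises and the median of the plasma cell genes were near those of all genes tested, of which 11.9% rose and 16.2% fell with a median of -0.15. Of 17 tested, 2 rose and 5 fell (median -0.19). Jchain rose to 632, 562 and 689 FPKM in GCB, with nB replicate 2 as described above. Pdia4, a chaperone of the endoplasmic reticulum, was at 295, 267 and 279 FPKM in nB and 43.4, 70.1 and 35.8 FPKM in GCB (change -2.53 ± 0.23 (SE), adjusted p = 2.76e-05). Xbp1, the transcription factor of the secretory program, was at 30.5, 28.2 and 21.3 FPKM in nB and 13.3, 10.9 and 10.5 FPKM in GCB (change -1.13 ± 0.26 (SE), adjusted p = 0.007). Under median of ratios scaling its change was -0.98 and it did not pass.

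RNA of Dnmt3a fell in GCB, while that of Dnmt1 rose. The targeted genes are counted over all exons, so these values do not show the deletion. Dnmt3a (chr12:3806007-3914443, mm9) was at 4.33, 2.24 and 3.86 FPKM in nB and 0.213, 0.22 and 0.362 FPKM in GCB (change -1.79 ± 0.37 (SE), adjusted p = 0.004). Dnmt3b (chr2:153475186-153513466, mm9) was at 0.521, 8.15 and 3.0 FPKM in nB and 0.805, 0.744 and 1.1 FPKM in GCB and did not pass (change -1.02, adjusted p = 0.20), though it passed without nB replicate 1, at a change of -1.69. In Dnmt3-sufficient cells the changes were -1.89 and -1.77.

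Of 24 genes of this machinery 11 rose and 3 fell (median 0.73), where 11.9% of all genes tested rose and 16.2% fell. The maintenance enzyme Dnmt1 was at 17.2, 9.7 and 18.4 FPKM in nB and 58.9, 85.4 and 56.5 FPKM in GCB (change 2.1 ± 0.29 (SE), adjusted p = 3.52e-04). Uhrf1, which brings Dnmt1 to newly replicated DNA, was at 7.2, 2.03 and 5.45 FPKM in nB and 169, 168 and 152 FPKM in GCB (change 4.92 ± 0.34 (SE), adjusted p = 4.35e-06), and the remodeler gene Hells and its partner Cdca7 rose by 3.44 and 3.39. Tet2, which oxidizes methylated cytosine, was at 6.51, 9.51 and 3.16 FPKM in nB and 0.0666, 0.492 and 1.37 FPKM in GCB (change -2.15 ± 0.46 (SE), adjusted p = 0.0053). The glycosylase Mbd4 and the deaminase Apobec1 rose by 2.09 and 2.51.

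Genes of both Polycomb repressive complexes moved both ways. Of 29 tested, 8 rose and 6 fell (median -0.28), where 11.9% of all genes tested rose and 16.2% fell. The falls are thus near the share over all genes. Those that rose were led by the complex 2 genes Phf19, Ezh2 and Mtf2, by 3.57, 2.81 and 2.09. Bmi1 and Cbx7 of complex 1 and Phf1 of complex 2 fell most, with changes of -2.74, -2.35 and -2.69. Ezh1, the counterpart of Ezh2 in resting cells, was at 35.9, 21.2 and 27.8 FPKM in nB and 3.44, 8.03 and 9.05 FPKM in GCB (change -1.96 ± 0.36 (SE), adjusted p = 0.0023), so the paralogs moved in opposite directions.

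Metabolic genes rose in part. Of 31 one-carbon and nucleotide synthesis genes 16 rose and 2 fell (median 1.08), and of 20 glycolysis genes 8 rose and 2 fell (median 0.81). Among all genes tested 11.9% rose and 16.2% fell, so in neither list were falls more frequent than among all genes. Psat1, a serine synthesis enzyme, was at 1.62, 6.47 and 12.3 FPKM in nB and 93.8 ± 8.19 FPKM (SD, n = 3) in GCB (change 3.89 ± 0.48 (SE), adjusted p = 1.92e-04). Shmt1 and Mthfd2 of the folate cycle rose by 3.17 and 2.45, and Tpi1 and Gapdh of glycolysis by 2.63 and 2.15. The glucose transporter Slc2a3 had a change of -1.63.

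Among apoptosis regulators the survival gene Bcl2 had the largest fall. Bcl2 was at 23.8, 30.1 and 25.5 FPKM in nB and 0.0465, 0.192 and 0 FPKM in GCB (change -4.67 ± 0.32 (SE), adjusted p = 4.25e-06). Of 29 tested, 6 rose and 3 fell (median 0.03), where 11.9% of all genes tested rose and 16.2% fell. Falls were thus no more frequent than among all genes. The other falls were those of Birc3 and Mcl1, both survival genes, with changes of -1.85 and -1.2. Birc5, which also serves mitosis, rose by 5.97.

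The same comparison in Dnmt3-sufficient mice gave similar counts. Of 10326 genes tested, 1297 rose (12.6%) and 1667 fell (16.1%). The genes that rose in both genotypes numbered 932, which is 75.5% of the Dnmt3-deficient rises and 71.9% of the Dnmt3-sufficient ones. The 1091 genes that fell in both were 64.7% and 65.4% of the falls. Of the 275 genes that rose in Dnmt3-deficient cells alone and were tested in both, 257 had a change above 0 in Dnmt3-sufficient cells as well. The groups of the 2 genotypes share no library, and across the 9975 genes tested in both, which are not independent of each other, the changes had a correlation of 0.896.

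The size of the change was close in the 2 genotypes. Genes were chosen on the mean change of both genotypes together, so that neither was favored. Over the 1396 that rose, the median change was 1.62 in Dnmt3-deficient and 1.72 in Dnmt3-sufficient cells, and the difference per gene had a median of -0.12 with quartiles of -0.48 and 0.24. Over the 1884 that fell, the medians were -1.54 and -1.6. In the plot of both genotypes most genes lie along the line of equal change.

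**Figure D4:**
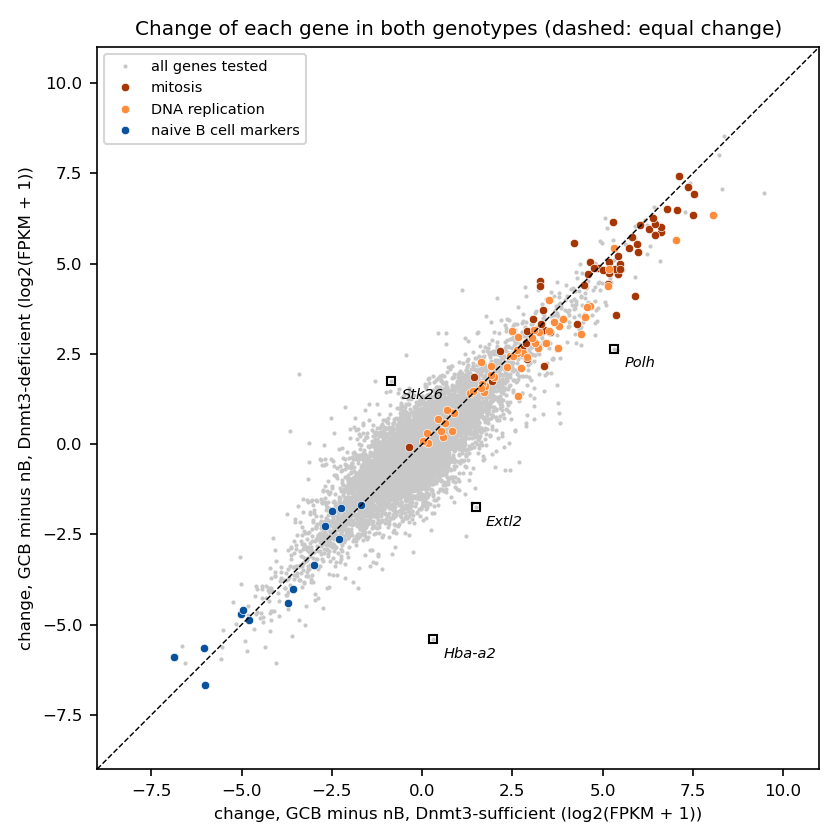
Change from nB to GCB of each gene in Dnmt3-deficient (vertical axis) against Dnmt3-sufficient cells (horizontal axis), on the log2(FPKM + 1) scale, for 11018 genes (grey points), with 3 gene lists colored and a dashed line of equal change. Mitosis, DNA replication and naive marker genes lie near the line, and the boxed genes Polh, Extl2, Stk26 and Hba-a2 lie away from it.

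Single libraries gave the same order. Each was placed on an axis from Dnmt3-sufficient nB, at 0, to Dnmt3-sufficient GCB, at 1, built only from libraries other than itself, so that the Dnmt3-sufficient libraries need not lie at 0 and 1. Dnmt3-deficient GCB lay at 0.95, 0.89 and 0.94 (0.92 ± 0.0321, mean ± SD, n = 3) and Dnmt3-sufficient GCB at 0.96, 0.94 and 0.93 (0.94 ± 0.0161). Dnmt3-deficient nB lay at 0.11, 0.15 and 0.1 (0.12 ± 0.0277) and Dnmt3-sufficient nB at 0.12, 0.13 and 0.1 (0.12 ± 0.0132). The genotypes overlapped in both cell types, and the lowest GCB position was that of Dnmt3-deficient replicate 2.

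**Figure D5:**
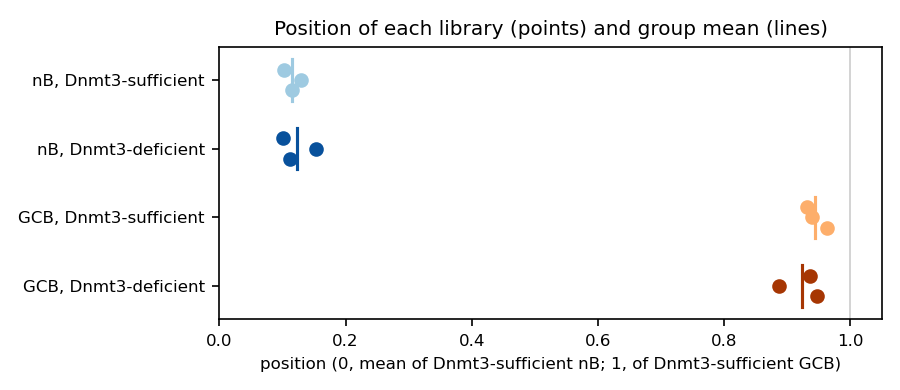
Position of each nB and GCB library (points; lines are group means, n = 3) on the axis from Dnmt3-sufficient nB (0) to Dnmt3-sufficient GCB (1), in units of the distance between them. GCB of both genotypes lay between 0.89 and 0.96 and nB of both between 0.10 and 0.15.

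No gene passed a test of whether its change differed between genotypes. This interaction, fitted with limma to the 12 nB and GCB libraries, called 0 of 11018 genes (0.0%), with 596 at an unadjusted p under 0.05, and voom on recovered reads also called 0, with 605. The resolution was limited: the 95% interval of the difference reached a median of 1.13 to either side, and it lay wholly within ±1 for 2034 genes, or 18.5%. These intervals are not adjusted for the number of genes, and differences well above 2-fold, such as that of Polh below, did not pass.

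The median difference, Dnmt3-deficient minus Dnmt3-sufficient change, was -0.21 for the mitosis genes and -0.14 for the DNA replication genes. It was -0.12 for the 1396 genes that rose in both genotypes together, given above, and -0.01 for all genes tested, so the value of the DNA replication list is close to that of all genes that rose. For the naive markers the medians of the list, -4.21 in Dnmt3-deficient and -3.64 in Dnmt3-sufficient cells, and the median of the differences per gene, 0.17, point in opposite directions. Among the division genes described above, Rrm2 was at 0, 4.26 and 0.766 FPKM in Dnmt3-sufficient nB and 598, 569 and 527 FPKM in Dnmt3-sufficient GCB, and Top2a at 1.1, 0.141 and 1.76 and 259, 253 and 231 FPKM. For both genes Dnmt3-deficient nB lay above Dnmt3-sufficient nB without overlap, and GCB overlapped; neither passed the interaction, but Rrm2 passed it without Dnmt3-sufficient nB replicate 2.

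The genes with the smallest p in the interaction all missed the threshold. Polh, the DNA polymerase eta that copies past damage in hypermutation, was at 7.47, 11.7 and 2.84 FPKM in Dnmt3-deficient nB and 43.3, 42.8 and 51 FPKM in GCB, against 0.29, 0.304 and 0.69 and 51.8, 49.2 and 68.2 FPKM in Dnmt3-sufficient cells. GCB of both genotypes were close, and every Dnmt3-deficient nB library lay above every Dnmt3-sufficient one (difference of the changes -2.68, 95% interval -3.8 to -1.56, adjusted p = 0.42). Without Dnmt3-deficient nB replicate 3 the adjusted p of Polh was 0.033 by limma, and over its other alternatives it was 0.15 to 1.0.

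Extl2, a glycosyltransferase gene, was the gene that passed in opposite directions in the 2 genotypes, and it was singled out after its values were seen. It was at 6.23, 3.64 and 4.54 FPKM in Dnmt3-deficient nB and 0.221, 1.64 and 0.523 FPKM in GCB, against 1.33, 0 and 1.44 and 4.11, 4.34 and 3.52 FPKM in Dnmt3-sufficient cells (difference -3.23, 95% interval -4.52 to -1.93, adjusted p = 0.42). Hba-a2, an alpha globin gene, had the smallest p (difference -5.7, adjusted p = 0.37) and was at 11.7, 59.6 and 117 FPKM in Dnmt3-deficient nB. It is itself a member of the erythroid list, so the erythroid sums given above include these values. Globin genes have near-identical copies, so its counts are uncertain.

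In the other direction stood Stk26, Rab30 and Gm8369. Stk26, a kinase gene, was at 0.761, 0.913 and 0.293 FPKM in Dnmt3-deficient nB and 7.03, 3.01 and 4.25 FPKM in GCB, against 5.69, 7.74 and 4.92 and 3.99, 3.18 and 1.82 FPKM in Dnmt3-sufficient nB and GCB (difference 2.61, adjusted p = 0.46). Rab30, a small GTPase gene of the Golgi, was at 16.9, 17.1 and 20.6 FPKM in Dnmt3-deficient nB and 50.4, 54.3 and 55.5 FPKM in GCB, against 45, 37.9 and 51.6 and 51.3, 51.2 and 63 FPKM in Dnmt3-sufficient nB and GCB (difference 1.21, adjusted p = 0.55). For both genes Dnmt3-deficient nB lay below all other groups, and the GCB values of the genotypes overlapped. Gm8369 was at 63.1, 39.1 and 35.7 FPKM in Dnmt3-deficient and 23, 18.7 and 22.4 FPKM in Dnmt3-sufficient GCB, so that here the groups lay apart in GCB (difference 1.28, adjusted p = 0.64).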

How the data were processed

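RNA of 5000 sorted cells per library was amplified by PCR (13 cDNA and 12 library cycles) and sequenced in 50-base pairs. The authors mapped reads to mm9 with TopHat, kept reads with 1 hit, counted them on exons of UCSC KnownGenes with summarizeOverlaps and deposited FPKM per gene. Strand use is not given in the sources used here, so overlapping and antisense genes are uncertain. The authors' log2 fold changes, p-values and FDR from edgeR were not used, and immunoglobulin genes were not analysed here. Of the values of each library 100% gave whole reads (within 0.001), so depth was recovered. Read counts of amplified RNA carry no molecular identifiers, and floors of 3 reads cover counting error only.

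Tests were limma 3.58.1 (R 4.3.3, trend, two-sided) on log2(FPKM + 1), separately for the 6 libraries of each genotype and jointly for the 12 in the interaction, with voom on recovered reads as the count-based alternative. Genes named were the 10 largest rises and falls that passed without overlap, up to 3 each way from each of 24 lists, the targeted genes, list members with a known role, and the 3 smallest p each way in the interaction, and some genes that this rule names are not reported here. Members and lists were chosen with earlier results of these data known. Listed genes without a row in the table used here were Nuggc, Faslg, Ccl21a, Ly6g, Hba-a1, Hbb-b2, Hbb-bt and Ahsp. Promoters were matched by Entrez ID and leave out chromosome 18. The fit was tested on simulated data. Alternatives left out each library in turn, added the other libraries (12 or 18 in the fit) or sex, used voom, rescaled by median of ratios, set the pseudocount to 0.1, dropped the low-value filter or raised it to 3 FPKM in 3 libraries, and changed the threshold to 0.01 or dropped the minimum change. The counts of list members under some of these were added after the data were seen, as were the plasmacytoid and natural killer lists.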

Additional observations from a re-analysis of the deposited data

How the results depend on the processing

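With all 18 libraries in the fit, 753 genes rose and 793 fell in Dnmt3-deficient cells, and 844 and 853 in Dnmt3-sufficient cells; the plasma cell libraries, which are shallower, then enter the spread. At an adjusted p of 0.01, 1066 and 976 genes fell. With 1 library left out, rises numbered 1059 to 1253 and falls 1327 to 1731 in Dnmt3-deficient cells, and 1033 to 1325 and 1185 to 1671 in Dnmt3-sufficient cells. The interaction called 0 to 2 genes with 1 library left out: Hba-a2 without Dnmt3-deficient nB replicate 1, Polh without its replicate 3, and Cd9 and Rrm2 without Dnmt3-sufficient nB replicate 2. It called 6 without a filter (Lag3, Tnfrsf1a, Cd200r1, Lrrc63, Klri2 and Rhox8) and 1 (Ckap2) with a pseudocount of 0.1. These genes were named after their values were seen, and the cause was not tested. Median changes of the genes that rose in both genotypes together were 2.06 (Dnmt3-deficient) and 2.21 (Dnmt3-sufficient) with a pseudocount of 0.1 and 2.1 and 2.38 by voom, which gave -1.96 and -2.05 for those that fell. Mean axis positions with a pseudocount of 0.1 were 0.16 for Dnmt3-deficient nB, 0.15 for Dnmt3-sufficient nB and 0.91 for Dnmt3-sufficient GCB, and 0.0972 for Dnmt3-sufficient nB with FPKM above 3. The median of the plasma cell genes was 0.0090 with that filter. Of 2091 alternative values for named genes, 2009 kept direction and call, 71 lost the call, 11 gained it and 0 changed sign. Same-numbered GCB libraries of the 2 genotypes had deviations correlated at 8.42e-05, -0.02 and 0.03, so no effect shared by them was seen. Whether they were matched by design cannot be told from these values. A replicate block in GCB called 0 genes in the interaction. Depth limits low and short genes most.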
